A study of Mus musculus with 8 samples.

Results

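Transcription factors of the eye field and of the retinal pigment epithelium (RPE) were examined in RPE eyecups of Bbs8-deficient mice. The group held 10 genes, chosen by symbol (Otx2, Mitf, Tfec, Pax6, Sox9, Sox11, Six3, Lhx2, Rax and Otx1) from 31053 gene identifiers in the count tables. The comparison addressed how loss of Bbs8 (annotated as Ttc8), a gene for one part of the ciliary protein complex called the BBSome, altered these transcripts before photoreceptor outer segments are mature. The assay was QuantSeq, a method that sequences the 3′ ends of polyadenylated RNA. There were 4 libraries from Bbs8+/+ mice and 4 from Bbs8-/- littermates, all untreated animals of strain C57/Bl6 at postnatal day 11 (P11). The deletion is constitutive, so every tissue of the eyecup lacks Bbs8. The methods count each animal as a biological replicate, but all 8 libraries held both Xist (1030 to 1990 counts) and Y-linked counts (139 to 260), so a library may hold RNA of both sexes and whether it stands for 1 animal is not settled. Muscle, fat, cornea, lens, retina and optic nerve had been taken away, so that choroid and sclera remained with the RPE.

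Otx2 and the microphthalmia-associated factor Mitf direct the optic vesicle towards RPE and switch on pigment genes, and Tfec is a relative of Mitf that is used in RPE. Sox9 acts with Otx2 on visual cycle genes of the RPE. Six3, Rax, Lhx2 and Pax6 set up the eye field in the early forebrain and later act in the neural retina, and Pax6 also takes part in the pigment programme. Sox11 acts in neural progenitors and in mesenchyme around the developing eye, and Otx1 is the close relative of Otx2. Several of these genes are used by other cells of the eye as well, Mitf by melanocytes of the choroid, Otx2 by photoreceptors and bipolar cells, and Sox9 by Müller glia and cartilage. In bulk RNA, fewer cells of a type and less RNA per cell cannot be told apart.

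Promoter sequence was read for the factors and for genes described with them. The following sequences are shown because they hold the letters searched, the M-box TCATGTG, which MITF is known to bind, and the OTX motif TAATCC, known for OTX2 and its relatives, or because they precede the start used for Mitf in melanocytes. They run 5′ to 3′ on the strand of the gene, come from RefSeq (build GRCm38.p6), and carry each match to either motif on either strand in capitals, so that CACATGA and GGATTA are the reverse-strand forms. They are the 250 bases before a start, shortened to the bases before the next annotated exon for the second Mitf start and to 30 bases around the match for Otx2 and Tyrp1, where the match lies in an annotated exon of another transcript. The positions are chr14:48665303-48665332 (minus strand, number 3 of 4 Otx2 starts), chr6:97929567-97929798 and chr6:97991533-97991782 (plus strand, numbers 2 and 3 of 3 Mitf starts), chr7:87493513-87493762 (Tyr, minus), chr4:80834155-80834184 (Tyrp1, plus), chr14:118052247-118052496 (Dct, minus) and chr7:64153585-64153834 (Trpm1, plus, number 1 of 2 starts).
Otx2, the third start: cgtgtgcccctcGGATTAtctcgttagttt
Mitf, the second start: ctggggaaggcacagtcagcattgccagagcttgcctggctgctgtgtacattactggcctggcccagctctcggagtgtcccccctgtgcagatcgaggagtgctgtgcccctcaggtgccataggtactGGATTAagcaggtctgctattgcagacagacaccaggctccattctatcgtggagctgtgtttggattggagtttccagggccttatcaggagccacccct
Mitf, the third start, used in melanocytes: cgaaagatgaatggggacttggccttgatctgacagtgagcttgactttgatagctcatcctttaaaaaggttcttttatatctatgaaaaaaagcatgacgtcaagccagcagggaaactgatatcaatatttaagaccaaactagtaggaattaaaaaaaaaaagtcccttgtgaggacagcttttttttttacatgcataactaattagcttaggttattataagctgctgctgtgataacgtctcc
Tyr: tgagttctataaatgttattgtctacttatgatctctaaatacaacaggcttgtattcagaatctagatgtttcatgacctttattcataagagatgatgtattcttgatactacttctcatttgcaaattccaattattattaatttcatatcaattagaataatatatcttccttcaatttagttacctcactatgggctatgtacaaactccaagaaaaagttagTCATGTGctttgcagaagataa
Tyrp1: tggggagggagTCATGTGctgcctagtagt
Dct: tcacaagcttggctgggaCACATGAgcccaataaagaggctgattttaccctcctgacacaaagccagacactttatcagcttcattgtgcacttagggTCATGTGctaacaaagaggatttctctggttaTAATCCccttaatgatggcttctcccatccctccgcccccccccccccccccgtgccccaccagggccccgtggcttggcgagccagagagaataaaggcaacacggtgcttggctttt
Trpm1, the first start: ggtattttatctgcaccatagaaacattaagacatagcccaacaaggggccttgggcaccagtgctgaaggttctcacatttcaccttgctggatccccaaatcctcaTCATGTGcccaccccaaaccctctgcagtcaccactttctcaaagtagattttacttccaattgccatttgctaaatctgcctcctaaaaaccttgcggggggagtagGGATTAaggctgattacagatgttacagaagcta

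RefSeq windows were given for 7 of the 10 factors (14 windows in all), with none used here for Sox9, Rax and Otx1. The OTX motif was found before 2 of the 7, Otx2 and Mitf, and the M-box before 0. Of the 11 pigment genes listed below, 7 had a window. The M-box stood before Tyr, Tyrp1, Dct and Trpm1, with the bases 22 to 16 before the Tyr start and 47 to 41 before the Tyrp1 start. The OTX motif stood before 3 of the 7, Dct, Trpm1 and Ednrb. Of the 8 RPE genes also listed below, 7 had a window, with the OTX motif before 3 (Best1, Rpe65 and Rgr) and the M-box before 0. Among all 32851 RefSeq windows of this length, 3.25% held the M-box, 6.25% the OTX motif and 0.189% both. Both were found before Dct and Trpm1. A match is a description of letters, and a missing match says only that they are not in these windows.

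The libraries held between 1636725 and 2884983 counts in genes, with a mean of 2461009 ± 320596 for the controls and 1978883 ± 257599 for the knockouts (SD, n = 4 each). This difference did not pass the threshold (two-sided exact permutation p = 0.0857, where 0.0286 is the smallest possible). Levels are given in CPM, counts scaled by library size, and 3 counts stood for 1.05 to 1.82 CPM. In the check of the targeted gene, Ttc8 had 34, 50, 39 and 62 counts in Bbs8+/+ replicates 1 to 4 and 16, 7, 5 and 9 counts in Bbs8-/- replicates 1 to 4, a log2 fold change of -1.95 (edgeR FDR 2.75e-06). RPE identity was checked with 11 marker genes, of which Rpe65, Rlbp1 and Lrat were well above the floor and Best1 lay near it. Their summed level was 17454 to 18515 CPM in Bbs8+/+ and 18707 to 19061 CPM in Bbs8-/-, without overlap. Of the 11, 0 passed the test (5 at an unadjusted p under 0.05, and 1 by DESeq2). The log2 fold change was above 0 for 8 and below 0 for 3. Ttr made up most of the sum, with means of 10938 CPM in Bbs8+/+ and 11656 CPM in Bbs8-/-. Rpe65 had means of 1999 and 1824 CPM in the same order. Lens markers summed to 206 to 242 CPM in Bbs8+/+ and 444 to 468 CPM in Bbs8-/-. Cryab made up most of the control sum, and its mean went from 162 to 146 CPM with loss of Bbs8. It was the 1 marker of 12 with a log2 fold change below 0, against 11 above 0. The mean of Cryaa rose from 8.42 to 67.6 CPM and that of Crygb from 8.39 to 111 CPM. The sum therefore does not give the size of the change in single lens markers. The share of Y-linked counts among Y-linked and Xist counts was 7.68% to 8.78% in Bbs8+/+ and 14.9% to 17.3% in Bbs8-/-. The RPE sum, the lens sum and the Y-linked share did not overlap between the genotypes, and their part in the results was not tested.

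Of the 10 factors, 9 passed the filter on low counts and Tfec did not. Among the 9, 1 gene (Otx2) was up-regulated in Bbs8-/- and 3 (Mitf, Sox9 and Sox11) were down-regulated at FDR 0.05, while 5 (Otx1, Pax6, Six3, Lhx2 and Rax) were not past the threshold. The number lower was 1 without Bbs8+/+ replicate 2, 2 by DESeq2, and 2 without Bbs8+/+ replicate 4 or without any one of the knockout libraries. Of 13813 genes tested, 2.24% were called in either direction, 1.10% upward (152 genes) and 1.14% downward (157 genes). The libraries were also scaled on the summed counts of the RPE markers, which are mostly Ttr. The split was then 93 upward and 265 downward, with a median of all genes of -0.068 on the log2 scale. The same 4 factors did not overlap between genotypes, against 7.36% of all tested genes. The median log2 fold change was -0.05 over the 9 factors and -0.0041 over all tested genes.

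**Figure D1:**
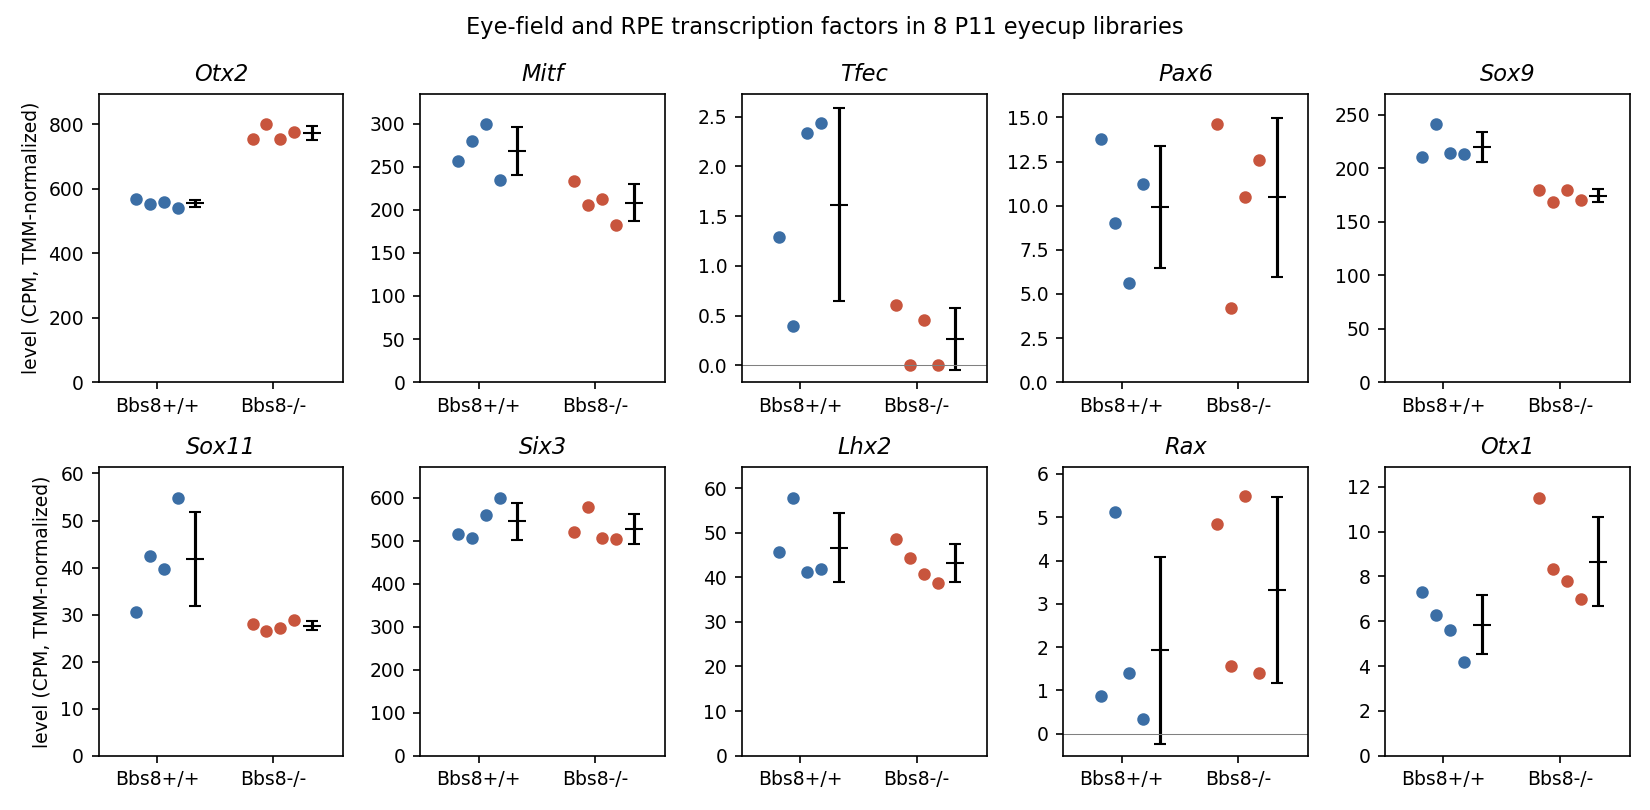
Level of each of the 10 factors in every library, in CPM after TMM normalization on a linear axis, with 1 point per library in the order of replicates 1 to 4 and with the mean and SD (n = 4) as bars. Otx2 lies between 540 and 568 CPM in Bbs8+/+ and between 753 and 799 CPM in Bbs8-/-, whereas Mitf, Sox9 and Sox11 lie lower in every Bbs8-/- library than in any Bbs8+/+ library.

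Otx2 (ENSMUSG00000021848, chr14:48657677-48673819 in mm10, minus strand), the homeobox factor required for RPE fate, had 568, 551, 558 and 540 CPM in Bbs8+/+ replicates 1 to 4 and 753, 799, 755 and 777 CPM in Bbs8-/- replicates 1 to 4. All 4 knockout libraries were above all 4 control libraries, and the spread within each genotype was small. The mean rose from 554 ± 11.6 to 771 ± 22 CPM (SD, n = 4 each), which is 1.39-fold, or 0.48 on the log2 scale, with a standard error of 0.0544 and a 95% interval of 0.37 to 0.58 (edgeR FDR 6.08e-12). By p-value Otx2 ranked 19 among all tested genes. The coefficient of variation was 2.08% in Bbs8+/+ and 2.85% in Bbs8-/-, where counting alone gives 2.71% and 2.56%. For comparison, all genes called between the genotypes had a median absolute log2 difference of 0.435. Otx2 kept its call under all 15 alternatives of processing, with log2 fold changes of 0.41 to 0.49, the lowest from scaling on the RPE markers.

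Markers of photoreceptors, which use Otx2, were followed beside it, and so were markers of the lens. Bipolar cells, which also use Otx2, had no marker list of their own. Photoreceptor markers summed to 389 to 455 CPM in Bbs8+/+ and 305 to 369 CPM in Bbs8-/-. In this list 2 genes were lower and 1 was higher. Gnat1, the rod transducin, fell by 0.86 on the log2 scale (edgeR FDR 0.000502), whereas the rod regulator Nr2e3 rose by 0.75 (edgeR FDR 0.0143), and 7 of 10 did not pass. Crx, the Otx relative of photoreceptors, had 11 ± 4.33 and 8.73 ± 2.76 CPM (SD, n = 4 each; log2 fold change -0.36, edgeR FDR 0.698). Of 12 lens markers, 6 were higher, all of them crystallins (Cryaa, Cryba1, Cryba4, Crybb1, Crygb and Crygs), and 6 were not called, the crystallin Cryab at -0.15, Crybb2 at 1.67, and the fibre genes Bfsp1, Bfsp2, Mip and Lim2 at 0.93, 0.30, 0.30 and 0.40 on the log2 scale (edgeR FDR 0.102 to 0.782). The 3 genes whose log2 levels followed Otx2 most closely over the 8 libraries were the lens crystallins Crygd, Crygc and Cryaa (Pearson r of 0.993, 0.99 and 0.988 among 9035 genes). This likeness is a description of 8 libraries that share the genotype split, and reads of the similar gamma crystallins are uncertain. Of the lens regulators, Foxe3 was at 0 in every library, and 0 of the 3 that could be tested passed in edgeR or DESeq2 (1 at an unadjusted p under 0.05).

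Mitf (ENSMUSG00000035158, chr6:97807052-98021349, plus strand), the basic helix-loop-helix factor of pigment cells, had 257, 280, 299 and 235 CPM in Bbs8+/+ replicates 1 to 4 and 233, 205, 213 and 182 CPM in Bbs8-/- replicates 1 to 4. The genotypes did not overlap, although Bbs8+/+ replicate 4 and Bbs8-/- replicate 1 lay close together. The mean fell from 268 ± 27.8 to 208 ± 21.2 CPM (SD, n = 4 each), and the log2 fold change was -0.36 (standard error 0.0765) and had a 95% interval of -0.51 to -0.21 (edgeR FDR 0.000669). Its coefficients of variation were 10.4% and 10.2%, wider than the 3.91% and 4.95% of counting alone. The call held under all 15 alternatives, with log2 fold changes of -0.43 to -0.30 and FDR of at most 0.0233. Reads from the 3′ end do not separate the Mitf transcripts that begin at the different starts shown above.

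Melanocytes of the choroid also use Mitf, and their markers summed to 759 to 802 CPM in Bbs8+/+ and 581 to 610 CPM in Bbs8-/-. Of the 7 markers 3 were lower, among them Mlana and Ednrb, which fell by 0.47 and 0.44 on the log2 scale (edgeR FDR 7.54e-07 and 1.97e-05). Mlana encodes a melanosome protein found in RPE as well, and Ednrb the endothelin receptor of melanoblasts. The defining melanocyte genes Sox10 and Kit were present in both genotypes, with log2 fold changes of -0.05 and -0.03 (edgeR FDR 0.878 and 0.974). The part of melanocytes in the lower Mitf level was not tested. Among the genes most like Mitf in level over the 8 libraries were Vars and Mat2b (r of 0.963 and 0.952), neither of which passed the test between genotypes (edgeR FDR 0.47 and 0.459).

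Tfec (ENSMUSG00000029553, chr6:16833373-16898441, minus strand) had 3, 1, 5 and 7 counts in Bbs8+/+ replicates 1 to 4 and 1, 0, 1 and 0 counts in Bbs8-/- replicates 1 to 4. The library ranges touched at 1 count, and no knockout library reached 3 counts. Pooled over the libraries, 2 against 16 counts gave a rate ratio of 0.155 with a 95% interval of 0.0173 to 0.661 for counting error only. Without the filter on low counts the log2 fold change was -2.42 (unadjusted p = 0.042, edgeR FDR 0.436), so a difference between genotypes was not established at this depth. The other partners of Mitf in the MiT family, Tfe3 and Tfeb, were tested and 0 of the 2 passed in edgeR, DESeq2 or before adjustment. Tfe3 had 32.6 ± 4.26 and 33.4 ± 5.11 CPM and Tfeb 13.4 ± 0.725 and 15.6 ± 3.18 CPM in Bbs8+/+ and Bbs8-/- (SD, n = 4 each), with 95% intervals of the log2 difference of -0.31 to 0.38 and -0.29 to 0.71.

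Sox9 (ENSMUSG00000000567, chr11:112782224-112787760, plus strand), the SRY-box factor that acts in RPE, Müller glia and cartilage, had 211, 241, 214 and 213 CPM in Bbs8+/+ replicates 1 to 4 and 180, 168, 180 and 170 CPM in Bbs8-/- replicates 1 to 4. Bbs8+/+ replicate 2 stood above the other controls, and the genotypes did not overlap. The mean fell from 220 ± 14.1 to 174 ± 6.51 CPM (SD, n = 4 each), and the log2 fold change was -0.33 (standard error 0.0791) and had a 95% interval of -0.49 to -0.18 (edgeR FDR 0.00429). Without Bbs8+/+ replicate 2 the log2 fold change was -0.28 and the call was lost (edgeR FDR 0.0671), and the call held under the other 14 alternatives. Cartilage markers summed to 1089 to 1329 CPM in Bbs8+/+ and 1058 to 1162 CPM in Bbs8-/-, with 0 of the 4 tested called by edgeR or DESeq2 (2 at an unadjusted p under 0.05). Nearly all of that sum was Col11a1, at 1151 ± 112 and 1086 ± 46.2 CPM (SD, n = 4 each). The cartilage collagens Col2a1 and Col9a1 were low and gave log2 fold changes of 1.39 (3.12 to 8.36 CPM in the means, no overlap, edgeR FDR 0.0686) and 1.11 (edgeR FDR 0.283). Markers of the inner retina and Müller glia summed to 917 to 976 CPM and 898 to 940 CPM, and of the 8 tested the glial filament gene Gfap alone was called, with a rise of 2.42 on the log2 scale (edgeR FDR 1.01e-06). The genes most like Sox9 in level were Col3a1, mt-Cytb and Sfpq (r of 0.963, 0.963 and 0.959 over 8 libraries).

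Sox11 (ENSMUSG00000063632, chr12:27334264-27342574, minus strand), a SoxC factor of progenitors and mesenchyme, had 30.6, 42.5, 39.7 and 54.8 CPM in Bbs8+/+ replicates 1 to 4 and 27.9, 26.6, 27.1 and 28.9 CPM in Bbs8-/- replicates 1 to 4. The knockout libraries lay within a narrow band just under the lowest control, while the controls spread widely. The coefficient of variation was 23.9% in Bbs8+/+ and 3.7% in Bbs8-/-, where counting alone gives 9.75% and 13.5%. The knockout band was thus narrower than counting noise allows for on average, and the lack of overlap rests on it. The mean fell from 41.9 ± 10 to 27.6 ± 1.02 CPM (SD, n = 4 each), and the log2 fold change was -0.61 (standard error 0.172) and had a 95% interval of -0.95 to -0.27 (edgeR FDR 0.0308). The call was lost under 7 of 15 alternatives, among them the fit without Bbs8+/+ replicate 4, which gave -0.44 (edgeR FDR 0.283), and the DESeq2 Wald test (log2 fold change -0.60, FDR 0.0924). Leaving out Bbs8+/+ replicate 2 (edgeR FDR 0.0777) or any knockout library (edgeR FDR between 0.0601 and 0.0881) also ended the call, with log2 fold changes of -0.63 to -0.59. Markers of periocular mesenchyme, where Sox11 is used, summed to 14019 to 14298 CPM in Bbs8+/+ and 10467 to 11240 CPM in Bbs8-/-. Most of that sum was Col1a1, with means of 11699 CPM in Bbs8+/+ and 8736 CPM in Bbs8-/-. In this list 3 of 7 were lower, among them the collagens Col1a1 and Col3a1, which fell by 0.42 and 0.21 on the log2 scale (edgeR FDR 2.01e-25 and 0.00017). The other 4, Foxc1, Foxc2, Twist1 and Pdgfra, did not pass, with log2 fold changes of -0.15, -0.03, -0.03 and -0.25 (edgeR FDR 0.384 to 0.987). The part of these tissues in the Sox11 and Sox9 values was not tested. The genes most like Sox11 in level were Chchd1, Eif4ebp2 and Cdon (r of 0.974, 0.967 and 0.966 over 8 libraries).

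The ratio of Otx2 reads to Mitf and Sox9 reads was also taken within single libraries, where no scaling between libraries enters. Bbs8+/+ replicates 1 to 4 held 2.21, 1.97, 1.87 and 2.3 Otx2 reads per Mitf read, and Bbs8-/- replicates 1 to 4 held 3.23, 3.9, 3.54 and 4.28. All knockout ratios were above all control ratios. Per Sox9 read there were 2.7, 2.29, 2.61 and 2.53 Otx2 reads in Bbs8+/+ and 4.18, 4.77, 4.2 and 4.57 in Bbs8-/-, again without overlap. Every knockout library lay above the controls for Otx2 and below them for Mitf and Sox9. The lack of overlap in the ratios therefore followed from those levels and is not a separate result. These ratios were chosen after the values had been seen and show that the genes changed unequally, not the amount by which either changed.

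**Figure D2:**
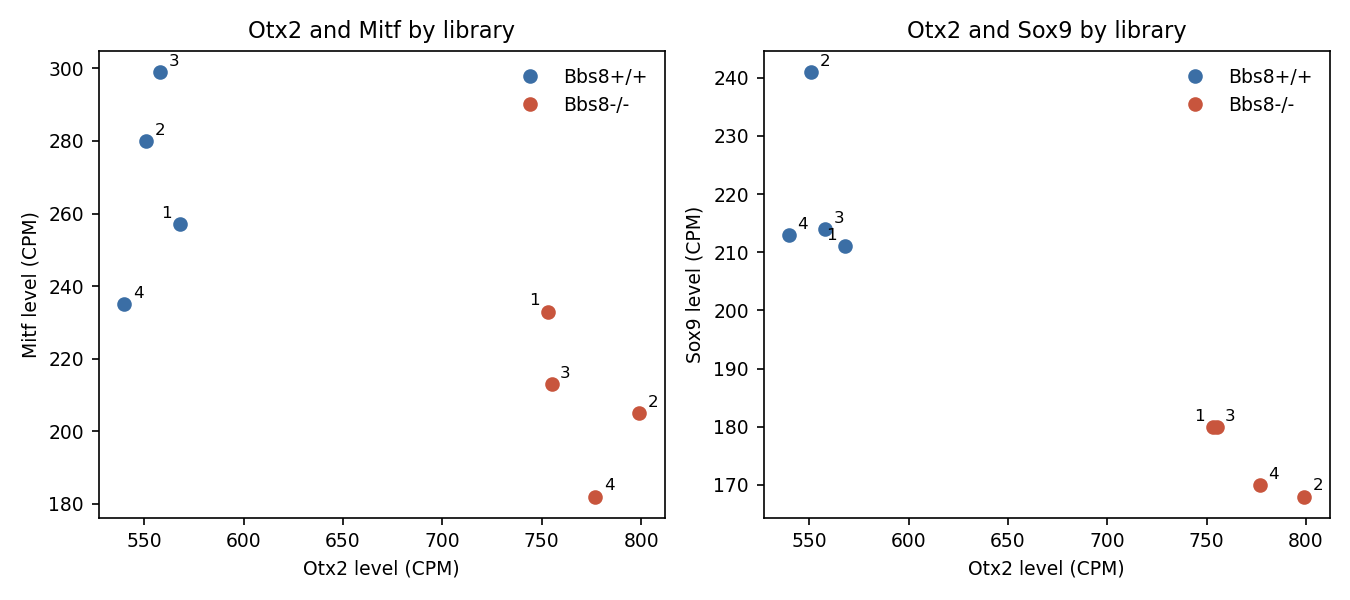
Level of Mitf (left) and Sox9 (right) against the level of Otx2 in the 8 libraries, in CPM on linear axes that do not start at 0, with 1 numbered point per replicate. The knockout libraries lie to the lower right of the controls in both panels, with Otx2 at 753 to 799 CPM against 540 to 568 CPM.

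**Figure D3:**
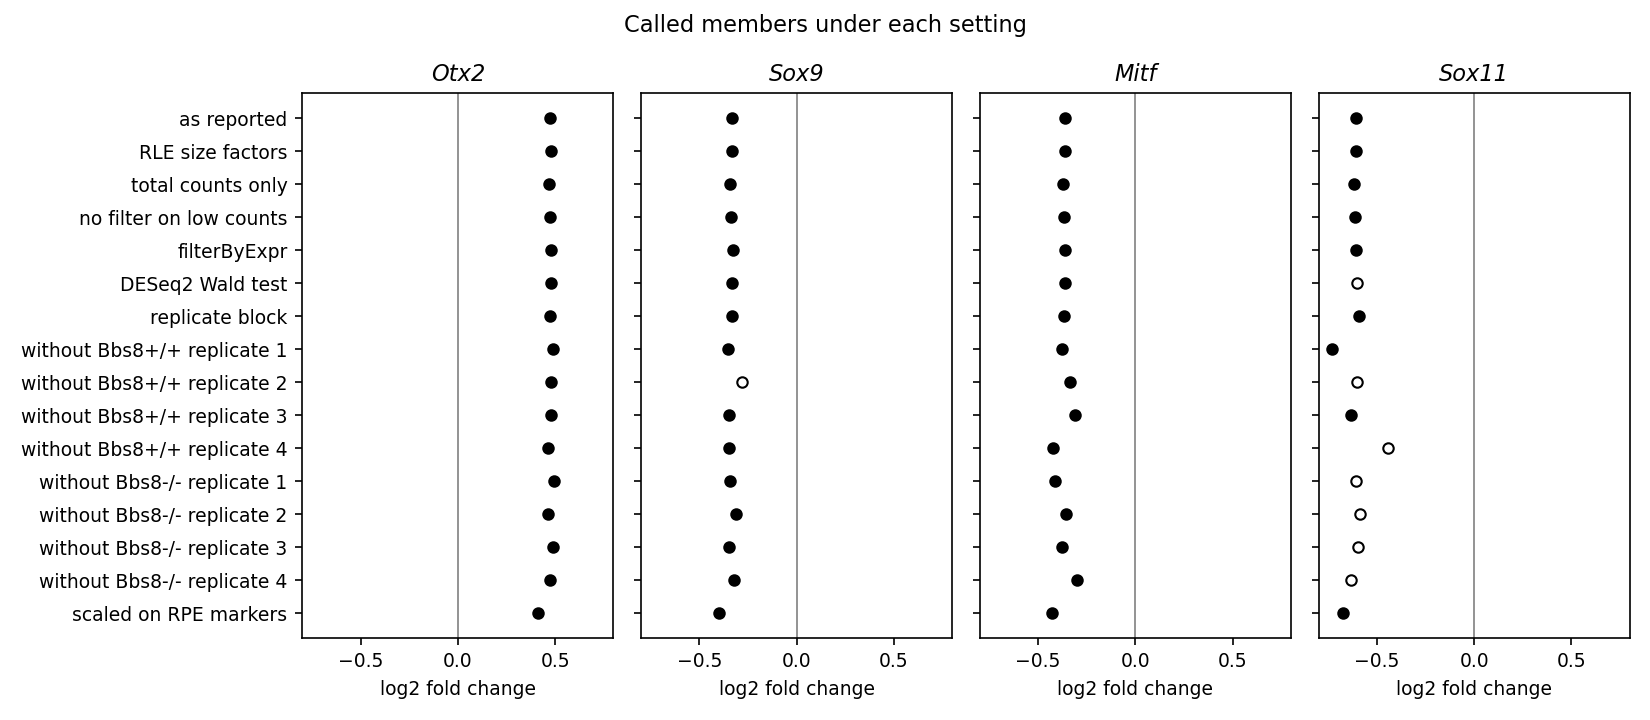
Log2 fold change (Bbs8-/- over Bbs8+/+) of Otx2, Sox9, Mitf and Sox11 as reported and under each of the 15 alternatives, where filled points passed FDR 0.05 and open points did not. Otx2 and Mitf passed throughout, Sox9 was open in 1 alternative and Sox11 in 7.

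Otx1 (ENSMUSG00000005917, chr11:21994764-22002897, minus strand), the relative of Otx2, had 7.32, 6.29, 5.6 and 4.19 CPM in Bbs8+/+ replicates 1 to 4 and 11.5, 8.35, 7.79 and 7 CPM in Bbs8-/- replicates 1 to 4. The ranges overlapped at one knockout and one control library. These levels stood for 12 to 19 counts per library, and the log2 fold change of 0.56 had a 95% interval of -0.17 to 1.28 (edgeR FDR 0.565).

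The eye-field genes Six3, Lhx2, Pax6 and Rax gave no call. Six3 (ENSMUSG00000038805, chr17:85613608-85629302, plus strand), a homeobox factor of forebrain and eye, had 515, 506, 560 and 600 CPM in Bbs8+/+ replicates 1 to 4 and 520, 580, 507 and 505 CPM in Bbs8-/- replicates 1 to 4. The genotypes overlapped nearly throughout, and the 95% interval of the log2 difference, -0.16 to 0.07, bounded it closely (log2 fold change -0.05, edgeR FDR 0.817). Lhx2 (ENSMUSG00000000247, chr2:38339281-38369733, plus strand), the LIM-homeobox factor of the optic vesicle, had 45.7, 57.8, 41.1 and 41.9 CPM in Bbs8+/+ and 48.5, 44.4, 40.8 and 38.8 CPM in Bbs8-/-. Its log2 fold change was -0.12 with a 95% interval of -0.42 to 0.17 (edgeR FDR 0.817).

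Pax6 and Rax were measured with few counts. Pax6 (ENSMUSG00000027168, chr2:105668900-105697364, plus strand), the paired-box factor of eye formation, had 13.8, 9.04, 5.6 and 11.2 CPM in Bbs8+/+ replicates 1 to 4 and 14.6, 4.18, 10.5 and 12.6 CPM in Bbs8-/- replicates 1 to 4. The genotypes overlapped throughout, and the 95% interval of the log2 difference was wide, from -0.55 to 0.68 (log2 fold change 0.06, edgeR FDR 0.962). Rax (ENSMUSG00000024518, chr18:65928277-65939787, minus strand), the retina and anterior neural fold homeobox gene, had 2, 13, 3 and 1 counts in Bbs8+/+ and 8, 3, 12 and 3 counts in Bbs8-/-. Single libraries of both genotypes stood out, and no difference was detectable at this depth (log2 fold change 0.76, 95% interval -0.54 to 2.06, edgeR FDR 0.698). Leaving out 1 library at a time, the Rax value ranged from 0.38 to 1.92, the highest without Bbs8+/+ replicate 2. Markers of the ciliary margin and iris, where eye-field factors persist, summed to 5.5 to 10.7 CPM in Bbs8+/+ and 4.58 to 18.2 CPM in Bbs8-/-.

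Overlapping genes limit some of these values, and it was not stated whether counting used the strand. Otx2 shares 154 exon bases with the opposite-strand Otx2os1, which had 498 counts over the Bbs8+/+ and 468 over the Bbs8-/- libraries. It also shares 168 exon bases with Gm49154 on its own strand, an overlap that strand does not resolve. Gm49154 was not among the counted genes and had no counts of its own. Six3 shares 168 exon bases with the opposite-strand Gm28528, which had 2 counts in each genotype. It shares 106 with the opposite-strand Six3os1, which was not among the counted genes either. Rax shares 1604 with Raxos1, which had 1 count in each genotype.

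Other factors of eye development were read against the same background. Among 23 further eye-field and optic cup factors, 16 were tested and 1, Nr2f2, a nuclear receptor of the RPE and of mesenchyme, passed. Nr2f2 (chr7:70351944-70366735) had 454, 449, 385 and 410 CPM in Bbs8+/+ replicates 1 to 4 and 329, 317, 312 and 363 CPM in Bbs8-/- replicates 1 to 4. The genotypes did not overlap, and the mean fell from 425 ± 32.8 to 330 ± 22.9 CPM (SD, n = 4 each), and the log2 fold change was -0.36 (standard error 0.0653, edgeR FDR 3.14e-05). The list had a median log2 fold change of -0.17 and reached 1.06 for Tbx5, a dorsal retina factor with 1.97 to 6.07 CPM in Bbs8+/+ and 6.06 to 12.1 CPM in Bbs8-/- (edgeR FDR 0.206). Of the 23, 7 were not tested, among them Six6, Vsx1, Pax2, Vax1, Hes5 and Lhx9. Of 9 other Sox genes, 8 were tested and 0 were called by edgeR or DESeq2 (3 at an unadjusted p under 0.05), with a median of -0.12 and a range from -0.79 (Sox17, edgeR FDR 0.223) to 0.63 (Sox12, edgeR FDR 0.216). Sox4, the SoxC relative of Sox11, had 169 ± 12 and 140 ± 14.9 CPM in Bbs8+/+ and Bbs8-/- (SD, n = 4 each; log2 fold change -0.27, 95% interval -0.44 to -0.10, edgeR FDR 0.0842).

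**Figure D4:**
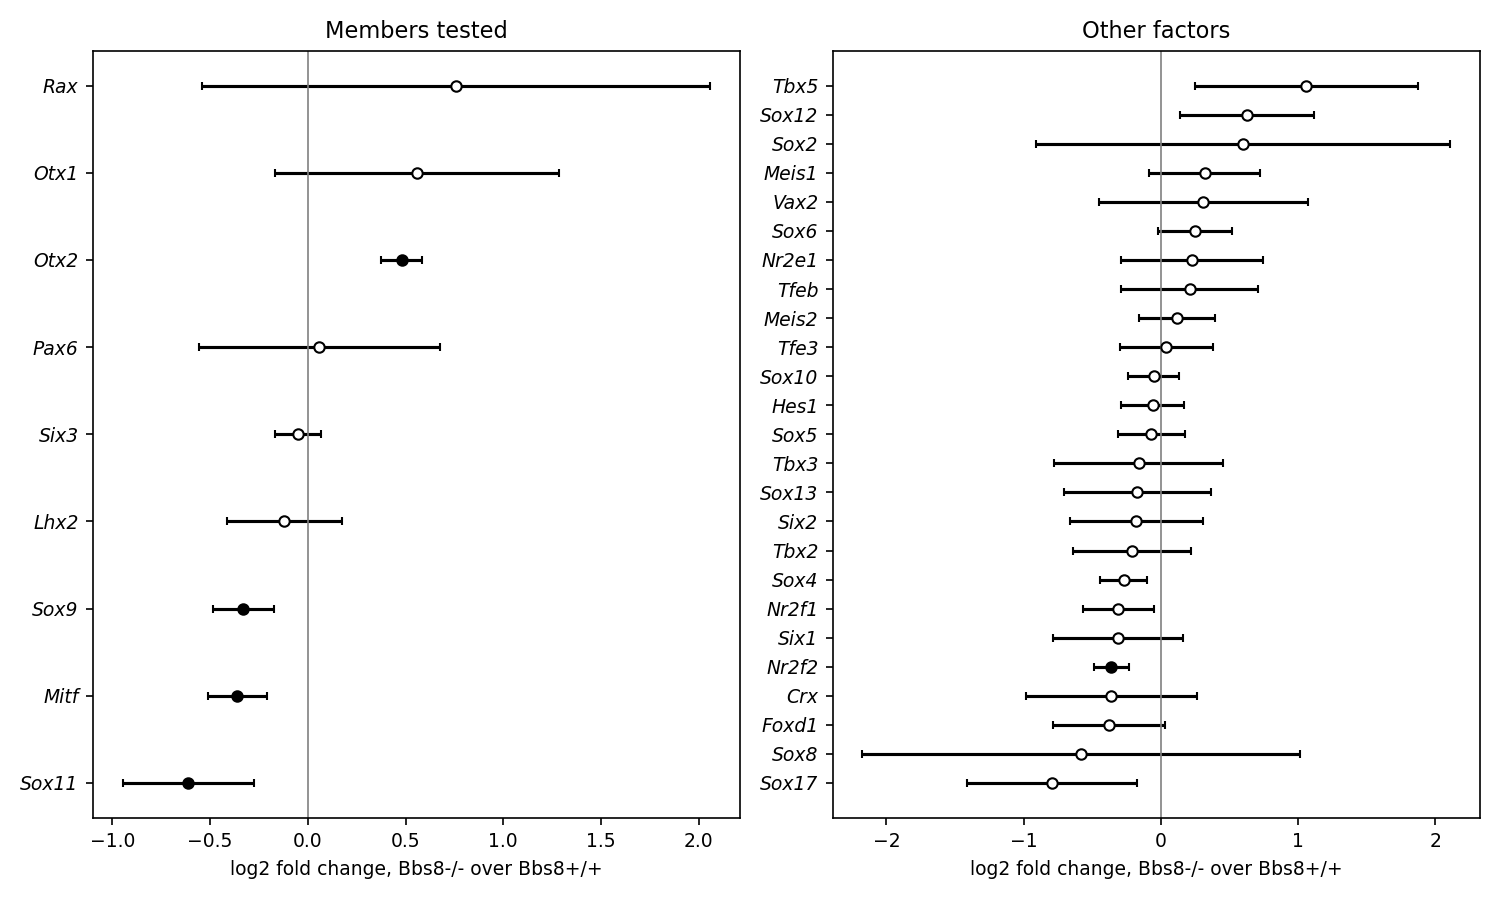
Log2 fold change (Bbs8-/- over Bbs8+/+) with 95% interval of the 9 factors tested (left) and of 25 of the 26 other eye-development, MiT and Sox factors tested (right), where filled points passed FDR 0.05. Otx2 lies at 0.48 on the positive side, Mitf, Sox9 and Sox11 lie on the negative side, and Nr2f2 is the only filled point among the 25 drawn.

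Pigment genes known to be controlled by MITF or OTX2 were examined beside the factors. Of 11 tested, 0 were higher and 7 were lower, against 1.14% of all genes lower, and the median log2 fold change was -0.25. Tyrp1, a melanin-synthesis enzyme whose M-box is printed above, had 696, 753, 654 and 790 CPM in Bbs8+/+ replicates 1 to 4 and 482, 486, 541 and 457 CPM in Bbs8-/- replicates 1 to 4. The genotypes did not overlap, and the log2 fold change was -0.56 (standard error 0.0581, edgeR FDR 5.59e-14). Dct, the dopachrome tautomerase whose window held both motifs, had 10263, 10270, 10382 and 10533 CPM in Bbs8+/+ and 8468, 8866, 8769 and 8778 CPM in Bbs8-/-. Here too every knockout library was lower, by a log2 fold change of -0.25 (standard error 0.0294, edgeR FDR 2.65e-11).

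Trpm1, a channel gene of pigment cells and bipolar cells whose window also held both motifs, had 550, 491, 571 and 529 CPM in Bbs8+/+ replicates 1 to 4 and 455, 442, 424 and 443 CPM in Bbs8-/- replicates 1 to 4. It fell by 0.28 on the log2 scale (edgeR FDR 0.000881). Slc45a2, a melanosome transporter, had 71.5, 114, 104 and 86.9 CPM in Bbs8+/+ and 54, 61.1, 60.1 and 71 CPM in Bbs8-/-, and fell by 0.61 (edgeR FDR 0.000309). Pmel, which forms the melanosome fibrils, fell by 0.25 (edgeR FDR 2.51e-05), and Mlana and Ednrb fell as given above. Mlana and Ednrb, and Gpr143 among the uncalled genes, are also on the melanocyte list.

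Tyr, the tyrosinase gene with the M-box nearest its start, was not among the lower genes. It had 268, 288, 272 and 263 CPM in Bbs8+/+ replicates 1 to 4 and 287, 244, 293 and 279 CPM in Bbs8-/- replicates 1 to 4. The genotypes overlapped, and the log2 fold change of 0.02 had a 95% interval of -0.12 to 0.16 (edgeR FDR 0.955). The melanosome genes Oca2, Gpr143 and Rab27a gave log2 fold changes of -0.22, -0.16 and -0.13 and were not called either (edgeR FDR 0.44, 0.833 and 0.62).

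RPE genes known to be controlled by OTX2, SOX9, LHX2 or MITF gave 0 calls among 8 tested, with a median log2 fold change of 0.09. All 8 are on the RPE marker list. Rpe65, the isomerase of the visual cycle, had 1987, 1989, 1890 and 2129 CPM in Bbs8+/+ replicates 1 to 4 and 1780, 1929, 1845 and 1742 CPM in Bbs8-/- replicates 1 to 4. The ranges overlapped at one library of each genotype, and the log2 fold change was -0.13 with a 95% interval of -0.22 to -0.05 (edgeR FDR 0.0842). Before adjustment, 4 of the 8 (Rpe65, Rlbp1, Ttr and Slc16a8) were under 0.05 in edgeR, and DESeq2 called 0. Rlbp1, a retinal carrier, and Ttr, the retinol transport protein transthyretin, gave log2 fold changes of 0.12 and 0.09 (edgeR FDR 0.299 and 0.0689). Without Bbs8+/+ replicate 3, Rpe65 (log2 fold change -0.16, edgeR FDR 0.0284) and Ttr (0.11, edgeR FDR 0.0132) passed. The highest value of the list, 1.57 for the channel gene Best1, rested on 0 to 1.87 CPM in Bbs8+/+ and 1.04 to 4.58 CPM in Bbs8-/- (edgeR FDR 0.44). It ranged from 0.91 without Bbs8-/- replicate 3 to 2.38 without Bbs8+/+ replicate 3.

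**Figure D5:**
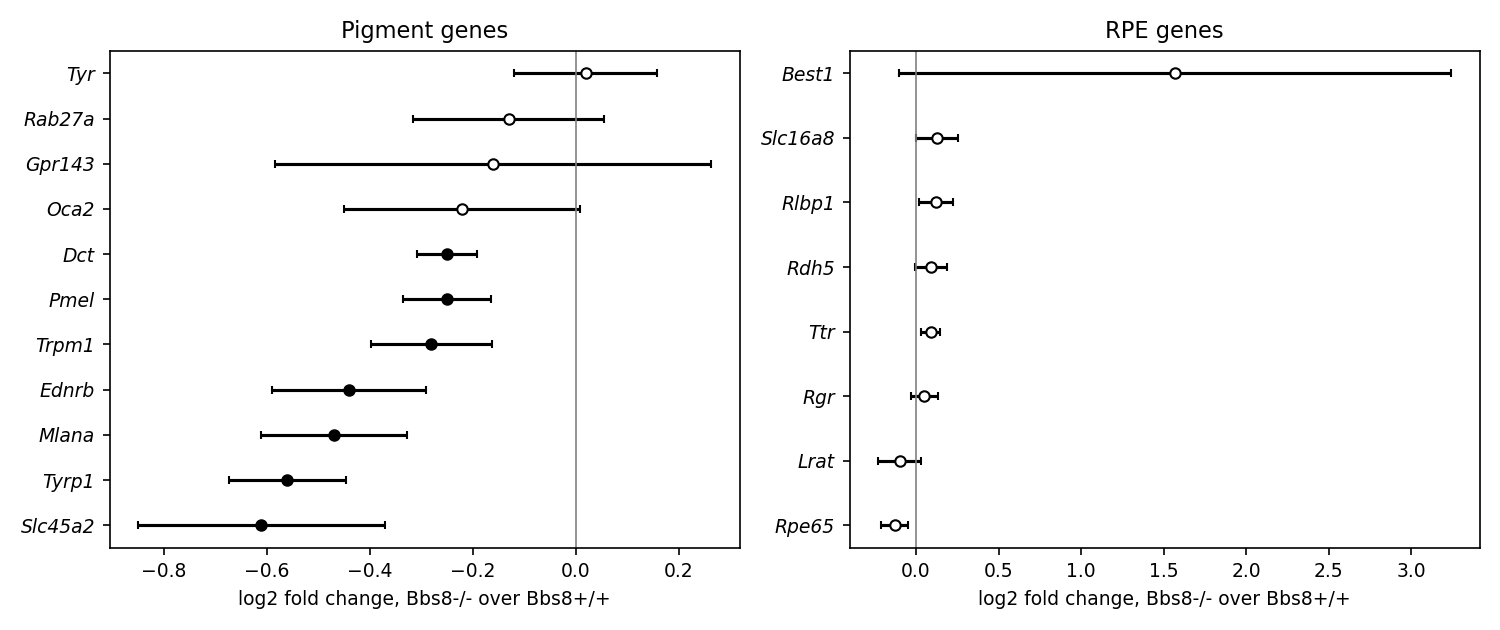
Log2 fold change (Bbs8-/- over Bbs8+/+) with 95% interval of the 11 pigment genes (left) and the 8 RPE genes (right) known to be controlled by the factors, where filled points passed FDR 0.05. Of the pigment genes 7 are filled, all below 0, Tyr sits at 0.02, and 0 of the RPE genes are filled.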

How the data were processed

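Each deposited table held the raw counts of 1 library, with uniquely aligned reads summed by gene. Per the labels and methods, the authors trimmed reads with BBDuk, aligned them with STAR to mm10 and counted them with htseq-count on an Ensembl gene model. The interval of the pooled Tfec ratio and the floors cover counting error only, since molecular identifiers were not named, whereas the 95% intervals of log2 fold changes come from the edgeR fit. Symbols were taken from GENCODE M21 (mm10), which held 31011 of the 31053 identifiers and lacked 42. A gene entered the test with 1 CPM or more in 4 or more libraries. The test was that of glmQLFTest in edgeR 4.0.16 under R 4.3.3 (quasi-likelihood, two-sided), with TMM factors and genotype as the only term, since the study's methods name edgeR generalized linear models. Benjamini-Hochberg adjustment ran over the 13813 genes tested, with a threshold of FDR 0.05. Two-sided exact permutation tests served for single library measures, and 0.0286 is the smallest p that 4 against 4 libraries can give. Summary lines for reads outside genes stayed out of library sizes. Of the tables, 0 were identical, and library pairs of one genotype differed by more than counting noise (mean chi-square per gene 1.91 to 3.23).

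The members, gene lists, motifs and tests were chosen with earlier results of these data known. The genes named were all 10 members, Ttc8, every called gene of the factor and target lists, the extremes of each list, genes that a statement needs, and the 3 genes most like each called member (Pearson r of log2 of CPM plus 0.5, mean of at least 10 CPM). Alternatives tried were size factors by RLE, no factors beyond total counts, filterByExpr, no filter, DESeq2 1.42.0, the replicate number as a block, each library left out in turn, and, added after seeing the data, scaling on the RPE markers. The procedure was tested on simulated data. The labels give no batch. Some genes that met the naming rule are not reported here.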

Additional observations from a re-analysis of the deposited data

Results flagged for a closer look

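Sox9 in Bbs8+/+ replicate 2 stood apart from its group, at 241 CPM against 211 to 214 CPM in the other 3 controls. Without this library the Sox9 call was lost, as given above. Among the marker genes, Bbs8+/+ replicate 3 stood apart for Col11a1 (1318 CPM against 1081 to 1105 CPM) and for the lens gene Cryba4 (3.74 CPM against 0 to 0.349 CPM). These were the 3 such libraries among 120 groups of 4 examined, those of the 60 list genes named with values, where chance gives about 6. Genes named without a value were not examined.

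A measure outside the gene counts also differed between the genotypes. Reads outside annotated genes made up a mean of 44.3% of uniquely aligned reads in Bbs8-/- (SD 0.125%, n = 4) against 42.64% in Bbs8+/+ (SD 0.542%, n = 4), with no overlap (two-sided exact permutation p = 0.0286, the smallest that 4 against 4 libraries allow). Its part in the values of the factors was not tested.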

How the results depend on the processing

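Otx2 and Mitf kept their direction and call under all 15 alternatives, as did the 7 lower pigment genes and Nr2f2. Leaving out 1 library at a time, the number of factors lower ranged from 1 to 3, with 1 without Bbs8+/+ replicate 2, where Sox9 and Sox11 lost their calls. The number of other factors lower ranged from 1 to 2, and RPE genes higher and lower from 0 to 1 each. Among genes not called, the log2 fold change changed sign in these fits for Pax6 (-0.115 to 0.326), Six3 (-0.0927 to 0.00371), Lhx2 (-0.173 to 0.00504), Tyr (-0.0145 to 0.0736) and Gpr143 (-0.387 to 0.00176). Scaling on the RPE markers, chosen after seeing the data, gave 2 other factors lower, 1 RPE gene lower (Rpe65, -0.198), and values below 0 for Pax6 (-0.00136), Tyr (-0.0467) and Rgr (-0.0141). That scaling lowers all values alike, and the cause of the other changes was not tested.

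The replicate number as a block gave 1 factor higher and 3 lower, as without it, and Sox11 at -0.593 (edgeR FDR 0.0498). Deviations of same-numbered libraries correlated at 0.0196, 0.00339, -0.0501 and -0.056 over 6626 genes, and 1 of 8 libraries correlated best with its own number, so the numbers do not pair the libraries. Over all genes the block gave 134 higher and 129 lower. Depth limits Tfec, Rax, Pax6 and Otx1, which had at most 32 counts in any library.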
